A study of Mus musculus with 8 samples.

Results

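The collagen family was examined in 8 mouse lung tumors, 4 labelled *K-Ctrl* and 4 labelled *K-Setd2KO*. The members are the protein-coding genes whose symbol is Col, a number, the letter a and a number, which gave 44 of the 48709 genes in the table. They were grouped by the form their protein takes, with 11 fibrillar collagens, 9 of basement membranes, 9 fibril-associated collagens with interrupted helices (FACIT), 6 beaded-filament (type VI) chains, 3 short-chain network collagens, 4 transmembrane collagens and 2 that were left unclassified.

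Collagens are extracellular matrix proteins in which chains wind around each other into a helix, a shape that needs a glycine in each repeat of 3 residues. Fibrillar collagens, mostly made by fibroblasts, form the tensile fibers of the stroma, whereas type IV chains form the sheet of the basement membrane on which epithelium and endothelium rest. In the lung, the basement membrane of the alveolus carries chains encoded by *Col4a3*, *Col4a4* and *Col4a5* beside the widespread chains of *Col4a1* and *Col4a2*, while *Col15a1* and *Col18a1* encode collagens with sugar chains that lie at basement membranes.

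All tumors arose in mice of the *K* model on a mixed B6J/129S4vJae background, in which Cre recombinase starts lung tumors. The lentiviral vector LentiCRISPRv2Cre, given into the airway, carried Cre, Cas9 and a guide RNA, so that both groups share the *K* genotype, Cas9 and Cre. The groups differ in the guide, which in *K-Ctrl* has no target in the mouse genome by design and in *K-Setd2KO* targets *Setd2*, the gene of a histone H3 lysine methyltransferase. According to the study, *K-Setd2KO* tumors were low-grade adenomas and the control tumors were matched to them in stage by histology. Mouse age at collection and which tumors shared a mouse are not given in the sources used here, so p-values measure the spread between these tumors. The sequencing came, according to the study, from earlier work, so the vector and strain above are those of the present study's methods. The series' design speaks of harvested, frozen tumors and names no sort, while its extraction text speaks of cell lines, a difference that was not resolved. In such bulk RNA, fewer cells of a type and less RNA per cell cannot be told apart.

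Total counts ranged from 5806599 to 21290402 per tumor. Levels are given as CPM (counts scaled by TMM factors to a common library size). For counting error alone, a count of 0 allows up to 3 counts. These 3 counts correspond to 0.513 CPM in *K-Setd2KO* replicate 4, the shallowest library, and 0.138 CPM in *K-Ctrl* replicate 3, the deepest. *Setd2* mRNA did not differ beyond the spread between tumors (log2 fold change −0.05, SE 0.115, edgeR adjusted p = 0.824), and because a guide alters the gene rather than its transcription this is no check of the label. By *Xist* and Y-linked genes, 1 of 4 *K-Ctrl* and 3 of 4 *K-Setd2KO* tumors were female. Genes of chromosome 6, which holds *Col1a2* and *Col28a1*, were higher by a median of 0.31 to 0.36 (log2) in *K-Setd2KO* replicates 1, 3 and 4 than in the controls, and by −0.05 in replicate 2. Lung epithelium was present in all libraries, with the lung lineage factor *Nkx2-1* between 390.1 and 874 CPM. This level does not tell tumor from normal epithelium.

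The glycine repeat is written into the coding sequence as a codon beginning with GG followed by 2 others. Runs of at least 5 such units were found in all 44 members, in the GENCODE M21 transcript with the longest coding sequence. The longest run reached 216 to 344 units in the fibrillar collagens, compared with 30 to 75 in the basement membrane collagens, where 11 to 27 such runs follow each other. Exons of exactly 54 bases, which is 6 repeat units, made up 47.0% of the fibrillar coding exons and 4.4% of the basement membrane ones. To show the repeat that all members share, 54 bases of the longest run, within which it is uninterrupted, are printed for *Col1a1* and *Col3a1* as fibrillar collagens and for the other members on which the results turn, with the first codon of each unit, a glycine codon, in capitals.
Col1a1: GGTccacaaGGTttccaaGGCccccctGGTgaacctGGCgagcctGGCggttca
Col3a1: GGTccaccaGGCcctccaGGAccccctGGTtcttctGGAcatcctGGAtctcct
Col4a1: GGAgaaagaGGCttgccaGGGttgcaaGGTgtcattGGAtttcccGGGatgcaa
Col4a5: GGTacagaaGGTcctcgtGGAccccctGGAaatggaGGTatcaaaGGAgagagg
Col4a6: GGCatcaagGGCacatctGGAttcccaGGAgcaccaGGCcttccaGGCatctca
Col15a1: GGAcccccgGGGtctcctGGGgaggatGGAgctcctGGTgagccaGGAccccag
Col18a1: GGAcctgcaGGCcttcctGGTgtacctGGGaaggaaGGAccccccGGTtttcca
Col6a3: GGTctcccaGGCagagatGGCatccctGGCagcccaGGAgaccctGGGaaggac
Col13a1: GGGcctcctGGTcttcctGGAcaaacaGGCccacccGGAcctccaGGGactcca
Each stretch lies within a single coding exon (GRCm38), *Col4a5* at chrX:141666850-141666903 on the plus strand, *Col4a6* at chrX:141192057-141192110 on the minus strand, *Col6a3* at chr1:90791924-90791977 on the minus strand and *Col13a1* at chr10:61863950-61864003 on the minus strand.

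Type IV genes lie head to head in the genome. The starts of *Col4a1* and *Col4a2* overlap by 22 bases on chromosome 8, those of *Col4a3* and *Col4a4* are 71 bases apart on chromosome 1, and those of *Col4a5* and *Col4a6* are 1308 bases apart on chromosome X. RefSeq promoters (GRCm38.p6) were at hand for 35 members, as 38 windows of the 250 bases before a start site. Of these windows 22 held the GC box GGGCGG on either strand, compared with 32.7% of all 32851 windows, while 13 held the CCAAT box CCAAT (33.8% of all windows) and 5 the TATA box TATAAA (12.4% of all windows). The members' windows had a median GC content of 59%, that of all windows being 52.4%, and the part of base composition in these counts was not tested. The 250 bases before the start are shown for the 4 members that changed, and for *Col4a1* as a type IV gene that did not pass the test, with these 3 motifs in capitals on either strand.
Col4a1: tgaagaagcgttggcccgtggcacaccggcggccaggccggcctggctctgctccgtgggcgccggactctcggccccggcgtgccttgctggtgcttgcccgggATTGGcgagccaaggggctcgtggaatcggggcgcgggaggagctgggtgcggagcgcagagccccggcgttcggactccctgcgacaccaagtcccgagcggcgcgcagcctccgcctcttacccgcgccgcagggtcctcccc
Col4a5: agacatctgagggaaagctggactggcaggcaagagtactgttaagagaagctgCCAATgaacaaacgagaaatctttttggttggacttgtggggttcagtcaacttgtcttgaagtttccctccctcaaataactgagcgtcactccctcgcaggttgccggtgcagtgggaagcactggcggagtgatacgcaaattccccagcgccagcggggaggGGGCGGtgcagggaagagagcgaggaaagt
Col4a6: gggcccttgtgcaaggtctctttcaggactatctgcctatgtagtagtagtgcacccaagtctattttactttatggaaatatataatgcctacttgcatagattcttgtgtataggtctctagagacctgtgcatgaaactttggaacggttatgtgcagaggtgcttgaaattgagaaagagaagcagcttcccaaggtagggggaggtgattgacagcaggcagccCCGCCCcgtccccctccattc
Col6a3: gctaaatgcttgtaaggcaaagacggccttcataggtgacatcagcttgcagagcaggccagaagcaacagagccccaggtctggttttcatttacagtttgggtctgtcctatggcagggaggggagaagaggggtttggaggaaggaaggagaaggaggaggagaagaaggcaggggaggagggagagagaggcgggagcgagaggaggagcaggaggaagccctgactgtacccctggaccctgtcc
Col13a1: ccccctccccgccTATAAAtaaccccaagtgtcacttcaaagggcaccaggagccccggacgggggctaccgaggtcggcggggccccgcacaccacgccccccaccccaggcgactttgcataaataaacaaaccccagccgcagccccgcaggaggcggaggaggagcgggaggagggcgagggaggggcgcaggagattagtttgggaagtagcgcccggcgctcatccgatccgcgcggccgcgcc
The *Col4a5* window, chrX:141475169-141475418 on the plus strand, held a CCAAT box and a GC box, while that of *Col4a6*, chrX:141474077-141474326 on the minus strand, held a GC box alone. That of *Col4a1*, chr8:11312827-11313076 on the minus strand, held a CCAAT box. The *Col13a1* window, chr10:61979109-61979358 on the minus strand, held the letters TATAAA near its end farthest from the start site. The position of a motif was not part of the search. In the *Col6a3* window, chr1:90843972-90844221 on the minus strand, none of these 3 motifs was found.

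To ask how the collagens differ between the genotypes, the groups were compared with edgeR's quasi-likelihood test over 14929 genes, of which 28 were collagens. *Col4a5*, *Col4a6*, *Col6a3* and *Col13a1* were lower in *K-Setd2KO* tumors at an adjusted p under 0.05. These 4 are 14.3% of the collagens tested, and 7.74% of all tested genes were called lower. No collagen was called higher, compared with 4.97% of all tested genes. At an unadjusted p under 0.05, 3 were higher (*Col11a2*, *Col15a1* and *Col18a1*) and 10 lower, and the DESeq2 Wald test called these 3 higher, where it called 6.6% of all genes higher, and 8 lower, where it called 10.6% lower. With sex as a term 2 collagens were lower (5.25% of all genes) and 0 higher (3.03%), and with the replicate number as a block 6 were lower (6.28%) and 0 higher (2.7%). The log2 fold change was below 0 for 23 of the 28, with a median of −0.83, while it was below 0 for 47.3% of all tested genes, with a median of 0.03. In 6 collagens, 21.4% of those tested, every *K-Setd2KO* tumor lay below every control, and 11.2% of all tested genes had this pattern. In addition to the members called, these were *Col4a3* and *Col27a1*. No collagen had the opposite pattern, seen in 9.06% of all tested genes. Being tested depends on the counts, so neither count speaks for the whole family.

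**Figure D1:**
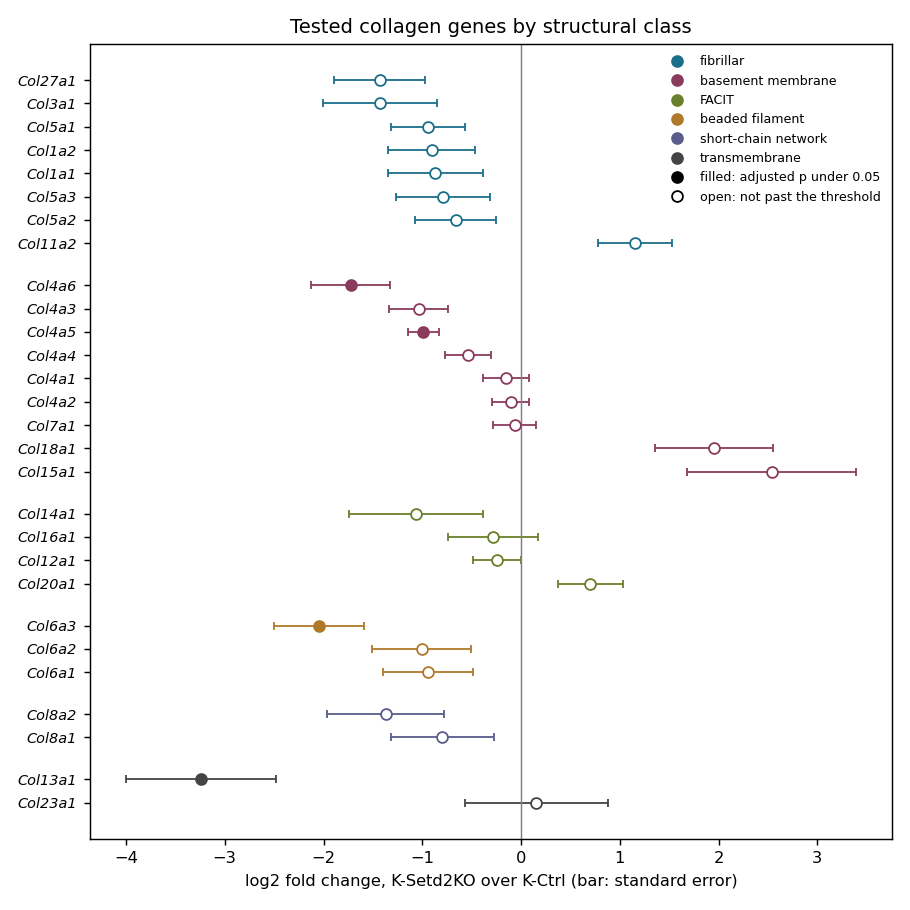
Log2 fold change of *K-Setd2KO* over *K-Ctrl* (horizontal axis) for the 28 tested collagens, arranged by class, with bars for the standard error. Filled points, *Col4a6*, *Col4a5*, *Col6a3* and *Col13a1*, passed an edgeR adjusted p of 0.05, and *Col15a1* and *Col18a1* lie farthest to the right with wide bars.

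All 9 basement membrane collagens were tested. Of these, 2 (22.2%) were called lower and 0 higher, where 7.74% and 4.97% of all tested genes were. *Col4a5* and *Col4a6* fell, the groups overlapped in *Col4a1* and *Col4a2*, and *Col15a1* and *Col18a1* had the highest fold changes of the 28 tested members without passing the test. The class median was −0.16 on the log2 scale, with 7 below 0.

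*Col4a5* (ENSMUSG00000031274.16, chrX:141475385-141689234, plus strand, GRCm38) encodes a chain of the specialised type IV network, mutated in Alport syndrome. Its CPM values were 79.0, 61.8, 59.1 and 59.0 in controls and 25.7, 32.1, 35.5 and 37.3 in *K-Setd2KO*. The highest *K-Setd2KO* tumor thus lay well below the lowest control. Its mean went from 64.7 ± 9.59 to 32.7 ± 5.13 CPM (SD, 4 tumors each), 1.99-fold lower in the fit (log2 fold change −0.99, SE 0.158, edgeR adjusted p = 0.00834). *Col4a5* passed the test in each of the 8 fits that left out a tumor (adjusted p at most 0.0258), and the log2 difference was −0.97 among female tumors (1 control, 3 *K-Setd2KO*) and −0.86 among male tumors (3 and 1).

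*Col4a6* (ENSMUSG00000031273.16, chrX:141165403-141474076, minus strand), its head-to-head neighbour, encodes a chain that partners the product of *Col4a5*. It was measured at 11.8, 5.13, 7.52 and 5.71 CPM in controls and 1.23, 2.29, 2.21 and 3.59 CPM in *K-Setd2KO*. The groups did not overlap, and the highest control and the lowest *K-Setd2KO* tumor were both numbered 1. The mean went from 7.53 ± 3.00 to 2.33 ± 0.969 CPM (SD, 4 tumors each), 3.31-fold lower in the fit (log2 fold change −1.73, SE 0.40, edgeR adjusted p = 0.0256). When sex was a term the adjusted p was 0.0928, and it was 0.0700 without *K-Ctrl* replicate 1, 0.0679 without *K-Ctrl* replicate 3, 0.050 (just over the threshold) without *K-Setd2KO* replicate 1 and 0.0659 without *K-Setd2KO* replicate 3. With the replicate number as a block it was 0.0786.

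*Col4a3* gave 267, 141, 169 and 143 CPM in controls and 78.1, 88.8, 131 and 52.4 CPM in *K-Setd2KO*. The groups did not overlap, and *K-Setd2KO* replicate 3 lay closest to the controls. The log2 fold change was −1.04 (SE 0.30, edgeR adjusted p = 0.0527), just outside the threshold. *Col4a3* passed it with upper-quartile factors (adjusted p = 0.0494), with at least 10 counts in every tumor (0.0429), in limma voom (0.0479), in DESeq2 (0.0086) and without *K-Setd2KO* replicate 3 (0.0403), and not in the other alternatives, where the adjusted p was up to 0.123. *Col4a4*, which starts 71 bases away on the other strand, reached 122 ± 33.2 CPM in controls and 83.8 ± 22.6 CPM in *K-Setd2KO* (SD, 4 tumors each; log2 fold change −0.54, edgeR adjusted p = 0.163), and its groups overlapped.

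*Col4a1*, which encodes the chain found in nearly all basement membranes, was the collagen with the highest level per length in both groups, at 99.4 ± 23.6 CPM per kb of exon in controls and 89.2 ± 21.8 in *K-Setd2KO* (SD, 4 tumors each). Its CPM values were 839, 600.0, 587 and 941 in controls and 711, 799, 429 and 723 in *K-Setd2KO*. These ranges overlap for the most part (log2 fold change −0.16, SE 0.233, edgeR adjusted p = 0.690). The *Col4a2* log2 fold change was −0.11 (edgeR adjusted p = 0.746). Their starts overlap on opposite strands, and whether counting used the strand is not stated, so reads there could be shared. *Col7a1*, the collagen of anchoring fibrils, was low and its groups overlapped, between 6.56 and 9.33 CPM in controls and between 5.99 and 8.80 CPM in *K-Setd2KO*.

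*Col18a1* encodes the collagen from which endostatin is cut. Its CPM values were 41.1, 94.0, 56.8 and 117 in controls and 249, 74.3, 231 and 642 in *K-Setd2KO*. Replicates 1, 3 and 4 of *K-Setd2KO* lay above all controls, and replicate 2 lay among them. Its log2 fold change was 1.95 (SE 0.596, edgeR adjusted p = 0.0632).

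*Col15a1* had the same arrangement less cleanly, with 12.7, 31.4, 11.9 and 46.1 CPM in controls and 206, 20.2, 43.2 and 322 CPM in *K-Setd2KO*. Replicates 1 and 4 were far above the controls and replicates 2 and 3 were within their range. The log2 fold change was 2.54 (SE 0.853, edgeR adjusted p = 0.0833). Without *K-Setd2KO* replicate 2, the tumor without the chromosome 6 shift, both passed the threshold (edgeR adjusted p = 0.0219 for *Col18a1* and 0.0348 for *Col15a1*). Without *K-Setd2KO* replicate 4, the highest tumor in both, the log2 fold change was 1.26 for *Col18a1* and 1.82 for *Col15a1*, and with sex as a term it was 1.71 for *Col15a1*. The part of the chromosome 6 shift in the result was not tested.

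Markers of alveolar type 1 cells and endothelium, which rest on these membranes, were read beside them. Of 8 type 1 markers, 2 were called lower, where 7.74% of all tested genes were (*Rtkn2*, with a log2 fold change of −2.51, and *Spock2*, with −2.55), and their summed level ranged from 2399 to 4776 CPM in controls and from 1376 to 2517 CPM in *K-Setd2KO*. Of 12 endothelial markers, 3 (25%, with 7.74% of all tested genes) were called lower, namely *Cdh5*, *Tek* and *Ptprb*. The endothelial sum ranged from 809 to 3093 CPM in controls and from 378 to 816 CPM in *K-Setd2KO*. Both sums overlapped between the groups. Their part in the fall of *Col4a5* and *Col4a6* was not tested. Of 10 markers of alveolar type 2 cells, 1 was called lower (*Napsa*) and 1 higher (*Sftpb*), near the 7.74% and 4.97% of all tested genes.

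**Figure D2:**
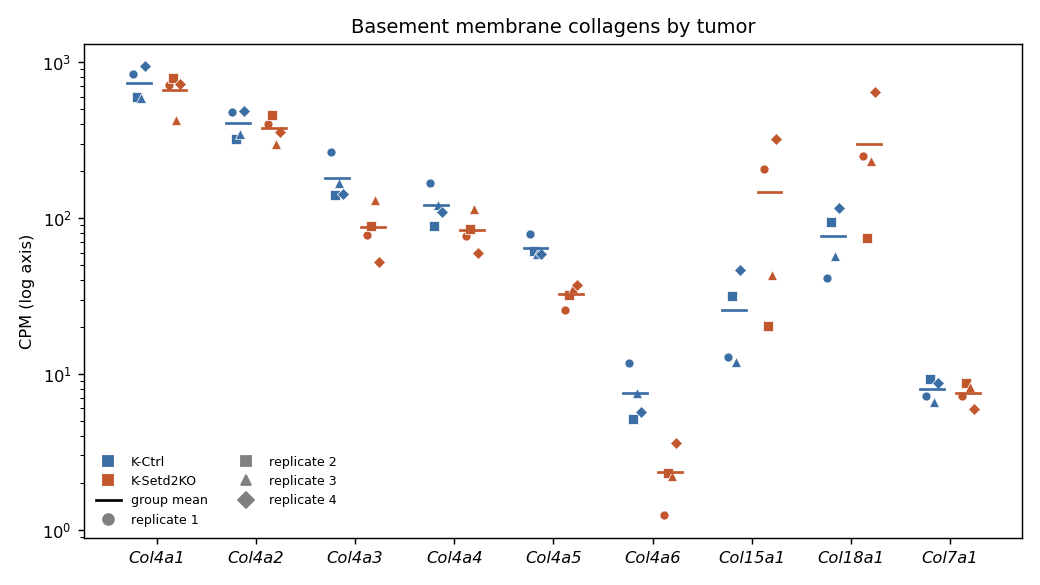
CPM (vertical log axis) of the 9 basement membrane collagens in each tumor, *K-Ctrl* in blue and *K-Setd2KO* in orange, with a symbol for each replicate and a line for the group mean. *Col4a5* and *Col4a6* separate the groups downwards, *Col4a1* and *Col4a2* overlap, and the *K-Setd2KO* tumors spread widely in *Col15a1* and *Col18a1*.

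Of the 11 fibrillar collagens, 8 were tested and none was called, where 12.7% of all tested genes were called in either direction. The log2 fold change was below 0 for 7 of the 8, with a median of −0.89. At an unadjusted p under 0.05, 3 were lower (*Col3a1*, *Col5a1* and *Col27a1*) and *Col11a2* was higher. The DESeq2 Wald test called *Col3a1* and *Col27a1* lower and *Col11a2* higher, at adjusted p under 0.05. With the replicate number as a block, edgeR called *Col3a1* (adjusted p = 0.0338), *Col1a2* (0.0365) and *Col5a1* (0.0436) lower.

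*Col1a1*, which encodes the main chain of type I collagen and had the highest level per length of the class over all 8 tumors (19.9 CPM per kb, with *Col3a1* at 19.2 and above it in controls), was measured at 124, 157, 84.6 and 309 CPM in controls and at 131, 78.9, 34.4 and 124 CPM in *K-Setd2KO*. The groups overlapped, since *K-Setd2KO* replicate 1 exceeded *K-Ctrl* replicates 1 and 3. Its log2 fold change was −0.87 (SE 0.481, edgeR adjusted p = 0.260). *Col1a2*, which encodes the other chain of type I, had a log2 fold change of −0.91 (SE 0.440, edgeR adjusted p = 0.205).

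*Col3a1*, the collagen of reticular fibers, gave 298, 277, 154 and 369.7 CPM in controls and 166, 67.5, 19.6 and 156 CPM in *K-Setd2KO*. All but *K-Ctrl* replicate 3 exceeded every *K-Setd2KO* tumor, and replicate 3 of *K-Setd2KO* lay lowest by far. The log2 fold change was −1.43 (SE 0.574, edgeR adjusted p = 0.134), and with sex as a term it was −2.42 (adjusted p = 0.0893), while that of *Col1a2* was −1.54 and that of *Col5a2* −1.31. *Col27a1*, a fibrillar collagen of cartilage, did not overlap between the groups, with 2.63 to 6.34 CPM in controls and 0.738 to 2.40 CPM in *K-Setd2KO* (log2 fold change −1.43, SE 0.461, edgeR adjusted p = 0.0716). The *K-Setd2KO* values of *Col27a1* rest on 41, 16, 8 and 14 counts. The highest of them, 2.40 CPM, comes from 14 counts in the shallowest library. *Col11a2*, which encodes a chain of type XI collagen, was the only tested fibrillar collagen with a fold change above 0, at 1.07 to 2.54 CPM in controls and 2.49 to 5.08 CPM in *K-Setd2KO* (log2 fold change 1.15, SE 0.376, edgeR adjusted p = 0.0744). The type V chains, which set fibril width, had log2 fold changes of −0.95 (*Col5a1*), −0.66 (*Col5a2*) and −0.79 (*Col5a3*), and none passed the test.

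Summed over the class, fibrillar collagens reached 743, 788, 437 and 1153 CPM in controls and 567, 303, 126 and 540.0 CPM in *K-Setd2KO*. The groups overlapped through replicate 3 of *K-Ctrl*. Markers of fibroblasts, the cells that make most fibrillar collagen, were summed beside them and gave 924, 365, 411 and 256 CPM in controls and 154, 93.6, 53.2 and 161 CPM in *K-Setd2KO*, without overlap. Of these 12 markers 7 were called lower, where 7.74% of all tested genes were, among them *Pdgfra* (log2 fold change −1.61), *Dpt* (−3.24) and *Inmt* (−2.82). Mesothelial markers, of the lining of the pleura, were called lower in 5 of 7, and their sum was 37.4 to 212 CPM in controls and 6.20 to 30.5 CPM in *K-Setd2KO*. *K-Setd2KO* replicate 3 was lowest in the fibrillar sum and in the fibroblast sum. The part of these cells in the collagen values was not tested.

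The FACIT collagens, which coat fibrils, gave no call, where 12.7% of all tested genes were called in either direction. Only *Col12a1*, *Col14a1*, *Col16a1* and *Col20a1* of 9 were tested, none with an unadjusted p under 0.05. *Col14a1*, the highest of the class per length over all 8 tumors but the lowest of these 4 in *K-Setd2KO*, was measured at 25.1, 27.7, 16.8 and 43.8 CPM in controls and at 33.9, 8.18, 2.21 and 8.90 CPM in *K-Setd2KO*. Replicate 1 of *K-Setd2KO* lay within the controls and the other 3 lay below them. Its log2 fold change was −1.07 (SE 0.678, edgeR adjusted p = 0.327). It was −2.04 with sex as a term (adjusted p = 0.224) and −2.15 without that tumor (adjusted p = 0.0395). *Col16a1* passed the threshold without *K-Setd2KO* replicate 2 (log2 fold change −1.08, edgeR adjusted p = 0.0118).

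Type VI collagen forms beaded filaments around cells, and its main form needs the products of *Col6a1*, *Col6a2* and *Col6a3*. *Col6a3* (ENSMUSG00000048126.16, chr1:90765923-90843971, minus strand), the gene of the longest chain, was measured at 61.7, 59.8, 35.9 and 121 CPM in controls and at 24.9, 21.2, 7.11 and 13.5 CPM in *K-Setd2KO*. No *K-Setd2KO* tumor reached the lowest control. Its mean went from 69.6 ± 36.2 to 16.7 ± 7.95 CPM (SD, 4 tumors each), 4.13-fold lower in the fit (log2 fold change −2.05, SE 0.455, edgeR adjusted p = 0.0233). The adjusted p was 0.0572 without *K-Setd2KO* replicate 4, the shallowest library, and 0.0799 with no filter on low counts.

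*Col6a1* gave 401, 191, 313 and 224 CPM in controls and 192, 255, 85.1 and 55.8 CPM in *K-Setd2KO*. Here replicates 1 and 2 of *K-Setd2KO* lay within the controls and replicates 3 and 4 lay far below. The log2 fold change was −0.94 (SE 0.458, edgeR adjusted p = 0.206), and that of *Col6a2* was −1.0 (SE 0.50, edgeR adjusted p = 0.215). *Col6a4*, *Col6a5* and *Col6a6*, the genes of alternative chains, had too few counts to be tested.

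*Col13a1* (ENSMUSG00000058806.14, chr10:61838236-61979108, minus strand), which encodes a membrane-spanning collagen found at cell contacts, had the lowest fold change of the 28 tested members. Its CPM values were 30.3, 6.47, 14.7 and 4.11 in controls and 2.62, 0.459, 0.738 and 2.05 in *K-Setd2KO*. The controls spread widely but stayed above every *K-Setd2KO* tumor. The *K-Setd2KO* values of *Col13a1* rest on 51, 6, 8 and 12 counts. Its mean went from 13.9 ± 11.9 to 1.47 ± 1.04 CPM (SD, 4 tumors each), 9.46-fold lower in the fit (log2 fold change −3.24, SE 0.756, edgeR adjusted p = 0.0268). Without *K-Ctrl* replicate 1, the highest tumor, the log2 fold change was −2.53. The call was lost with sex as a term (adjusted p = 0.109), in limma voom (0.0695), with no filter (0.0701) and without *K-Ctrl* replicate 1 (0.0599) or 3 (0.0673) or *K-Setd2KO* replicate 3 (0.0739) or 4 (0.0546).

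*Col23a1*, the other transmembrane collagen that was tested, gave 50.1, 17.6, 38.7 and 20.4 CPM in controls and 13.7, 76.8, 46.1 and 4.28 CPM in *K-Setd2KO*. The *K-Setd2KO* tumors lay both above and below all controls (log2 fold change 0.16, SE 0.728, edgeR adjusted p = 0.909). *Col17a1*, a collagen of hemidesmosomes, was not tested, having 22, 4, 8 and 5 counts in controls and 1, 0, 0 and 0 counts in *K-Setd2KO*. These counts do not overlap but lie near the limit of detection. *Col17a1* was called lower where low counts were kept, by edgeR with no filter (log2 fold change −4.50, adjusted p = 0.0286) and by DESeq2 (−4.56, adjusted p = 0.0106).

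**Figure D3:**
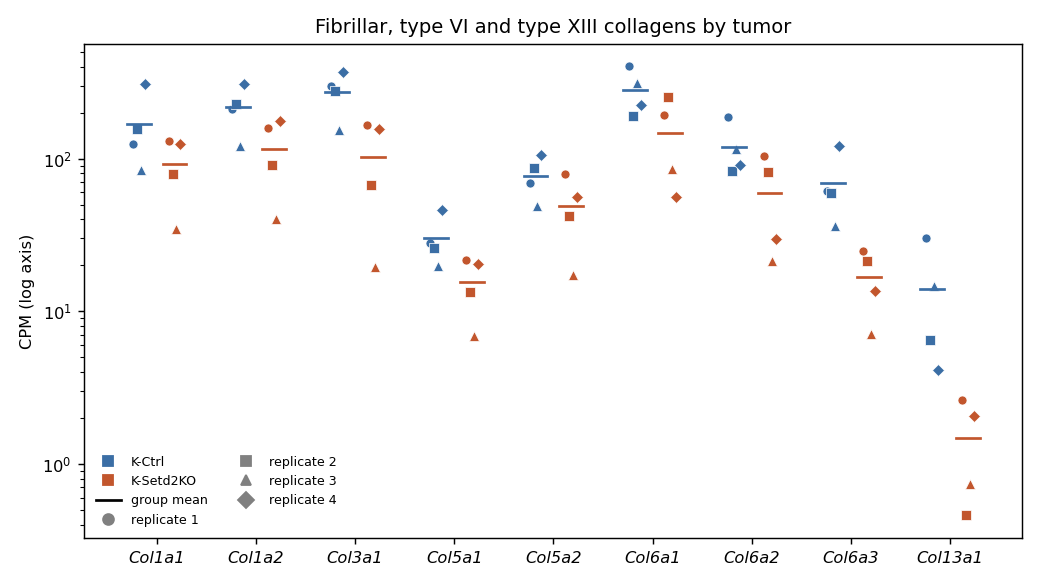
CPM (vertical log axis) of 5 fibrillar collagens, the 3 main type VI chains and *Col13a1* in each tumor, *K-Ctrl* in blue and *K-Setd2KO* in orange, with a symbol for each replicate and a line for the group mean. Only *Col6a3* and *Col13a1* show no overlap between the groups, and *K-Setd2KO* replicate 3 is lowest in each fibrillar gene.

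*Col8a1*, the collagen of endothelial and vessel wall networks, had 12.4, 14.4, 6.74 and 41.9 CPM in controls and 9.55, 8.87, 16.3 and 8.39 CPM in *K-Setd2KO*. The ranges overlapped (log2 fold change −0.80, SE 0.519, edgeR adjusted p = 0.340). Without *K-Ctrl* replicate 4, the highest tumor, its log2 fold change was −0.04. *Col8a2*, the other short-chain collagen tested, was low, at 0.625 to 2.59 CPM in controls and 0.205 to 0.918 CPM in *K-Setd2KO*, with overlap. Its log2 fold change was −1.37 (SE 0.588, edgeR unadjusted p = 0.0436, adjusted p = 0.154). *Col28a1*, on chromosome 6, was not tested and ranged from 0.504 to 3.88 CPM in controls and from 0.153 to 1.37 CPM in *K-Setd2KO*. In all, 16 members were not tested, with 3 to 138 counts over the 8 tumors and at most 3.93 CPM in any tumor. These were *Col2a1*, *Col11a1*, *Col24a1*, *Col9a1*, *Col9a2*, *Col9a3*, *Col19a1*, *Col22a1*, *Col6a4*, *Col6a5*, *Col6a6*, *Col10a1*, *Col17a1*, *Col25a1*, *Col26a1* and *Col28a1*, several of them known from cartilage. Apart from *Col17a1*, none of them was called in the alternatives that could test it. The defining cartilage gene *Acan* stayed at or under 0.625 CPM.

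The make-up of the collagen counts was compared next. Basement membrane collagens took 53.8% ± 2.20 of all collagen counts in controls and 70.8% ± 7.47 in *K-Setd2KO* (SD, 4 tumors each). The lowest *K-Setd2KO* share, 63.6%, exceeded the highest control share, 56.7%. The fibrillar share was 25.2% ± 6.58 and 14.8% ± 5.87, and the type VI share was 15.7% ± 3.81 and 9.24% ± 5.05 (SD, 4 tumors each), both with overlap. *Col15a1* and *Col18a1* together took 3.41% ± 1.52 in controls and 17.5% ± 12 in *K-Setd2KO* (SD, 4 tumors each). The basement membrane class summed to 1636 ± 319.8 and 1706 ± 383 CPM (SD, 4 tumors each), and over all 44 members it was 3048 ± 638 and 2432 ± 563 CPM. Shares depend on each other, and no test was run on them.

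Ratios of level per length were computed for 12 pairs of chains, some of which assemble with each other and some of which lie in the same kind of matrix. The ratio of *Col4a1* to *Col4a2* was 1.60 ± 0.10 in controls and 1.54 ± 0.211 in *K-Setd2KO*, and that of *Col1a1* to *Col1a2* was 1.41 ± 0.343 and 1.55 ± 0.138 (SD, 4 tumors each). Both ratios overlapped between the groups. The ratio of *Col4a3* to *Col4a4* was 1.57 ± 0.146 in controls and 1.09 ± 0.120 in *K-Setd2KO* (SD, 4 tumors each), from 1.40 to 1.70 and from 0.936 to 1.23. Among all 12, it was the only ratio without overlap between the groups. The ratio of *Col4a5* to *Col4a1* was 0.10 ± 0.0208 and 0.0585 ± 0.0235, overlapping through *K-Setd2KO* replicate 3 (SD, 4 tumors each). That of *Col6a3* to *Col6a1* was 0.103 ± 0.0707 and 0.0493 ± 0.0275 (SD, 4 tumors each), with wide overlap. The ratios were not tested.

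**Figure D4:**
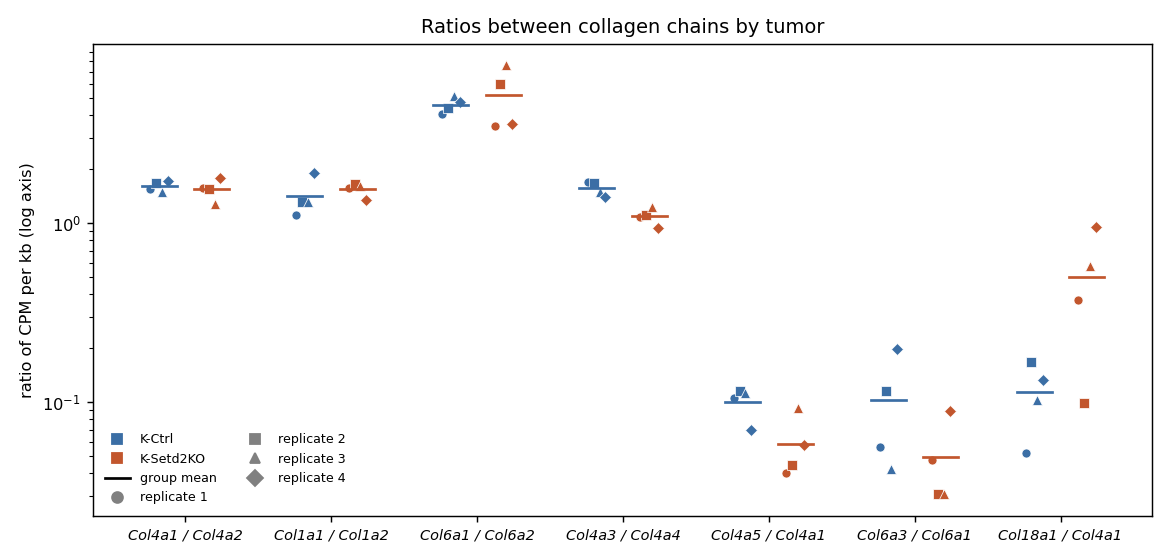
Ratio of CPM per kb of exon between chains of 7 pairs (vertical log axis) in each tumor, *K-Ctrl* in blue and *K-Setd2KO* in orange, with a symbol for each replicate and a line for the group mean. The *Col4a3* to *Col4a4* ratio separates the groups, while the *Col4a1* to *Col4a2* and *Col1a1* to *Col1a2* ratios overlap.

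The genes that make, bind or break down collagen were taken from 7 lists of 122 genes, of which 109 were tested. Of these, 23 (21.1%) were called lower in *K-Setd2KO*, where 7.74% of all tested genes were, and 2 higher, where 4.97% were, and their log2 fold changes had a median of −0.41. Of the 24 genes whose products modify, fold and export the chains, 2 (8.3%, near the 7.74% of all tested genes) were called lower and 0 higher by edgeR, with 5 lower and 5 higher at an unadjusted p under 0.05. *Colgalt2*, which adds galactose to hydroxylysine, had a log2 fold change of −1.99 (edgeR adjusted p = 0.0199), a call lost in 4 of 17 alternatives. *Plod1*, a lysyl hydroxylase, was at −0.89 (edgeR adjusted p = 0.0374), a call lost in 7 of 18 alternatives. The chaperone *Serpinh1*, which binds only procollagen, gave 179.9, 131, 164 and 211 CPM in controls and 164, 90.6, 59.9 and 245 CPM in *K-Setd2KO*, with overlap (log2 fold change −0.29, edgeR adjusted p = 0.653).

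Among 13 tested genes of propeptide removal and cross-linking, 2 (15.4%, with 7.74% of all tested genes) fell. *Pcolce2*, an enhancer of the protease that removes the end of procollagen, was measured at 138, 34.6, 64.7 and 22.7 CPM in controls and at 8.37, 2.68, 2.95 and 9.24 CPM in *K-Setd2KO*, without overlap (log2 fold change −3.51, SE 0.664, edgeR adjusted p = 0.0141). *Pxdn*, the peroxidase that forms the sulfilimine bond between type IV chains, was at 95.3, 32.0, 47.5 and 33.4 CPM and at 17.9, 11.0, 7.66 and 14.2 CPM, again without overlap (log2 fold change −2.03, SE 0.403, edgeR adjusted p = 0.0157). The lysyl oxidase gene *Lox* did not pass the test (log2 fold change −0.07, edgeR adjusted p = 0.910).

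Of 14 tested fibril-associated proteins, 4 (28.6%, with 7.74% of all tested genes) were called lower. These were *Ogn* (log2 fold change −3.99), *Postn* (−1.83), *Ecm2* (−1.82) and *Prelp* (−1.67). The call of *Postn* was lost in 7 of 18 alternatives, and those of *Ogn* and *Prelp* in 4 each. *Ogn*, a small leucine-rich proteoglycan, went from 28.1 to 163 CPM in *K-Ctrl* to 0.765 to 13.2 CPM in *K-Setd2KO*, and the most abundant of the list, *Sparc* and *Bgn*, did not pass the test. Fibroblasts are a known source of these proteins, and the summed fibroblast markers given above were lower in the same tumors. Their part in the result was not tested.

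Partners of type IV in the basement membrane moved in both directions. *Lama3*, the gene of a laminin alpha chain, was measured at 170, 104, 103 and 73.0 CPM in controls and at 38.6, 15.7, 16.2 and 39.7 CPM in *K-Setd2KO* (log2 fold change −2.04, SE 0.387, edgeR adjusted p = 0.0141). *Lamb3*, the gene of a laminin beta chain, rose, at 185 to 223 CPM in controls and 304 to 554 CPM in *K-Setd2KO* (log2 fold change 0.95, edgeR adjusted p = 0.0148). Neither gene overlapped between the groups. In addition, *Fbln1* (log2 fold change −2.42), *Lama4* (−1.21) and *Nid1* (−0.88) were called lower. Thus 4 of 20 tested partners (20%) were called lower and 2 higher, where 7.74% and 4.97% of all tested genes were.

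Of 10 tested collagen receptors 2 (20%, with 7.74% of all tested genes) were called lower, *Ddr2*, a receptor tyrosine kinase for fibrillar collagen, and *Lair1*, an inhibitory receptor of leukocytes. *Ddr2* was at 143, 71.2, 76.6 and 72.2 CPM in controls and at 39.7, 23.1, 15.2 and 23.1 CPM in *K-Setd2KO* (log2 fold change −1.84, SE 0.333, edgeR adjusted p = 0.0124), while the epithelial receptor *Ddr1* did not pass the test (log2 fold change 0.23, edgeR adjusted p = 0.341). Of 12 tested genes of collagen breakdown, 4 (33.3%, with 7.74% of all tested genes) were called lower. They were *Mmp8* (log2 fold change −2.05), *Mmp2* (−1.74), the cathepsin gene *Ctsk* (−1.56) and the inhibitor gene *Timp3* (−1.35). These calls were often lost, *Timp3* in 11, *Mmp2* in 10 and *Ctsk* in 8 of 18 alternatives and *Mmp8* in 7 of 17. Of 16 genes of the TGF-beta axis, which drives collagen transcription in fibroblasts, 5 (31.2%, with 7.74% of all tested genes) were called lower. *Tgfb2* was at 20.1 to 27.6 CPM in controls and 5.55 to 11.5 CPM in *K-Setd2KO* (log2 fold change −1.71, SE 0.254, edgeR adjusted p = 0.00738), and the latency protein gene *Ltbp4* had a log2 fold change of −2.37 (edgeR adjusted p = 0.0112). *Ltbp1* (−1.21), *Ccn2* (−1.09) and *Tgfb3* (−1.0) were the others, and the call of *Ltbp1* was lost in 8 of 18 alternatives. The signal carriers *Smad2* and *Smad4* did not pass the test (0.03 and 0.00 on the log2 scale).

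**Figure D5:**
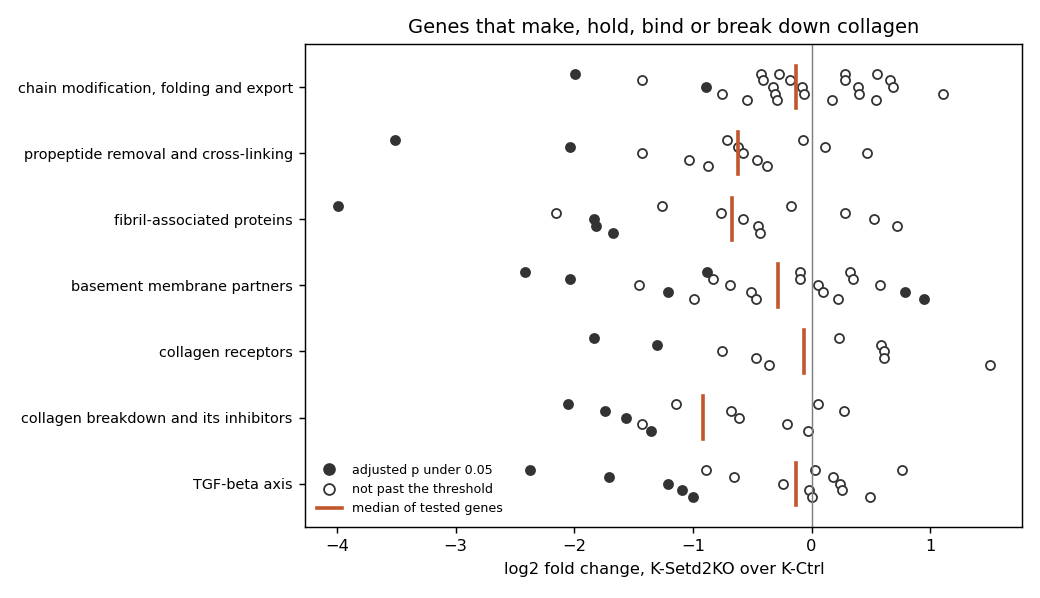
Log2 fold change of *K-Setd2KO* over *K-Ctrl* (horizontal axis) for the 109 tested partner genes in 7 lists, filled where the edgeR adjusted p is under 0.05, with an orange line for the median of each list. The filled points lie to the left of 0 except 2 basement membrane partners, *Lamb3* among them.

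Other cells of the tumor were compared through their markers. Leukocyte markers were called lower in 6 of 8, where 7.74% of all tested genes were, with a sum of 1182 to 2097 CPM in controls and 617 to 818 CPM in *K-Setd2KO*. Markers of smooth muscle and pericytes gave 1 lower and 1 higher call of 15, 6.7% each and near the 7.74% and 4.97% of all tested genes (sums of 208 to 344 CPM and 179.9 to 284 CPM), and epithelial markers gave 4 higher calls of 10, including *Epcam* (log2 fold change 0.90), with sums of 1675 to 2509.6 CPM and 2224 to 2686 CPM. The summed type 2 cell markers were 46815 to 69519 CPM and 55703 to 79657 CPM. Sums for cartilage were 77.0 to 121 CPM and 73.0 to 124 CPM, for Schwann cells 57.4 to 68.1 CPM and 63.3 to 75.3 CPM, for heart muscle 80.8 to 256 CPM and 41.8 to 221 CPM, with *Actc1* as its only call (lower), and for adipocytes 1.25 to 18.7 CPM and 0.205 to 2.91 CPM. The defining genes *Sox10* of Schwann cells and *Adipoq* of adipocytes had 0 counts in all tumors.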

How the data were processed

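RNA was sequenced from 8 tumors with a kit that marks strand. A matrix of unnormalized counts per gene was deposited by the authors; the submitters' processing notes name STAR 2.5.2b, featureCounts 1.5.0-p1 and GRCm38.p4, and whether counting used the strand is not given in the sources used here. Symbols came from GENCODE M21, which held 99.26% of the identifiers. Counts were tested in R 4.3.3 with edgeR 4.0.16 (filterByExpr, TMM, robust quasi-likelihood fit, genotype alone) and Benjamini-Hochberg adjustment over 14929 genes at 0.05, and standard errors follow from the F value. On simulated data with 200 changed genes among 14929, drawn as *K-Setd2KO* against *K-Ctrl*, 28.6% of 2-fold and 79.8% of 4-fold changes were recovered and 3.74% of calls were false. Alternatives used DESeq2 1.42.0 (the study used another release of DESeq2), limma voom 3.58.1, other factors and filters, sex, a replicate block, length, and each tumor left out. The members, lists and tests were chosen with earlier results of these data known. Members called, and the highest per length of each class, are given in full. Of each partner list up to 4 called genes with the smallest p are named. *Col1a2*, *Col3a1*, *Col11a2*, *Col15a1*, *Col18a1*, *Col27a1*, *Col4a2*, *Col4a3*, *Col4a4* and other genes were named after their values were seen. No library pair agreed within sampling noise (chi-square at least 30.5 per degree of freedom). Some items are not reported here.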

Additional observations from a re-analysis of the deposited data

Results flagged for a closer look

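A tumor far from the other 3 of its group was found in 10 of 140 groups examined, where chance gives about 7 (1 in 20). Among the collagens, *K-Ctrl* replicate 1 stood apart in *Col4a5* (79.0 CPM, with the other controls at 59.0 to 61.8) and in *Col28a1* (3.88 CPM, others 0.504 to 0.803), and with it in the sum of the unclassified collagens (4.19 CPM). *K-Setd2KO* replicate 3 stood apart in *Col8a1* (16.3 CPM, others 8.39 to 9.55) and in the short-chain sum (17.6 CPM). Among partners, *K-Ctrl* replicate 1 was high in *Ddr2* (143 CPM, others 71.2 to 76.6) and *Mmp2* (42.6 CPM, others 20.4 to 22.0), *K-Ctrl* replicate 2 in *Lair1* (25.5 CPM, others 10.8 to 13.2), and *K-Ctrl* replicate 4 in the summed chain modification genes (3113 CPM, others 2373 to 2463). The epithelial marker sum of *K-Setd2KO* replicate 3 was low (2224 CPM, others 2615 to 2686). *Col4a5* still passed the test without *K-Ctrl* replicate 1.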

How the results depend on the processing

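The 4 collagens called lower became 8 with DESeq2's Wald test and 2 (*Col4a5* and *Col6a3*) with sex as a term, and 2 to 5 when a tumor was left out. The lowest counts came without *K-Ctrl* replicate 1 or 3 or *K-Setd2KO* replicate 4. The 0 called higher became 3 with DESeq2, and 0 to 2 when a tumor was left out, with *Col15a1* and *Col18a1* called only without *K-Setd2KO* replicate 2. With sex as a term, the 23 partner genes called lower became 10, while the share of all tested genes called lower went from 7.74% to 5.25%. When a tumor was left out, the 23 became 9 to 21, with 9 without *K-Ctrl* replicate 1. The count was 11 without *K-Ctrl* replicate 3 or *K-Setd2KO* replicate 3 and 14 without *K-Setd2KO* replicate 4. The share of all genes called is not given for the fits that left out a tumor. The 2 partner genes called higher became 5 with DESeq2 (6.6% of all genes), 4 with sex as a term (3.03%) and 1 to 7 when a tumor was left out. The log2 fold change of *Col23a1* turned to −0.31 in limma voom, −0.43 with the replicate block and below 0 without *K-Ctrl* replicate 2 or 4 or *K-Setd2KO* replicate 2 (−0.57 to 0.51 when each tumor was left out). That of *Col4a1* ranged from −0.26 to 0.0070 when each tumor was left out, its only value above 0 coming without *K-Setd2KO* replicate 3, and that of *Setd2* turned to 0.06 with the length trend removed and 0.10 with length and GC removed, an alternative chosen after seeing the data. Of 752 values of single genes under alternatives, 634 kept their direction and side of the threshold, 95 lost the call, 15 gained it and 8 changed sign. The cause of these changes was not tested.

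Over all tested genes, deviations of same-numbered tumors correlated at −0.07, −0.03, 0.19 and −0.02, and only replicate 3 correlated best with its own number. With 4 tumors per group, this check cannot settle whether the numbers pair the tumors. In the block fit the SE moved both ways, from 0.481 to 0.255 for *Col1a1* and from 0.158 to 0.195 for *Col4a5*. With the replicate block 6 collagens were called lower and 0 higher (*Col1a2*, *Col3a1* and *Col5a1* gained, *Col4a6* lost), with 23 partner genes lower and 3 higher. The shallowest library, *K-Setd2KO* replicate 4, limits low genes, and sex differs between the groups.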
